A study of Mus musculus with 12 samples.

Results

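The genes described here are the tumour suppressor p53 (Trp53) and its inhibitor Mdm2, a set of established p53 target genes, the translesion DNA polymerases Polh and Polk, and the core genes of nucleotide excision repair. They were chosen by name, from what they are known to do, and number 39 of the 53465 gene identifiers in each library. Of these, 22 are p53, Mdm2 and p53 targets, and 17 are polymerases and repair genes. All 39 matched 1 identifier each, and all 39 passed the filter on low counts, which left 15126 genes for testing.

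Ultraviolet B light (UVB) joins neighbouring pyrimidine bases in DNA, and these lesions block DNA and RNA polymerases. Nucleotide excision repair finds the lesion, opens the helix, cuts the damaged strand on both sides and fills the gap, while translesion polymerases copy past lesions that remain. The same damage stabilises p53 by releasing it from Mdm2, and p53 then raises the transcription of genes for cell cycle arrest, cell death, stress metabolism and repair. In skin, p53 in keratinocytes is known for the arrest and death of sunburnt cells. Much of the control of p53 itself acts on the protein, which RNA counts do not measure.

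Total RNA of mouse skin was sequenced in bulk in 12 libraries, 3 in each of 4 groups that cross Foxp3 genotype with skin site. Foxp3 encodes the transcription factor of regulatory T cells, and the series title places the work in inflammation of the skin that follows UVB in mice carrying an altered Foxp3. The first group was untreated skin of Foxp3-WT mice (WT untreated), and the second was UVB-irradiated skin of Foxp3-WT mice (WT UVB). The other groups were untreated and irradiated skin of mice with the altered form, here called DE2 (DE2 untreated, DE2 UVB). The sample labels write that genotype Foxp3-E2, the protocol writes Foxp3-DE2 and the title writes Foxp3dExon2, and they were taken as 1 genotype. Irradiated skin had received 6 UVB doses, of 200 mJ/cm2 each by the sample labels and of 100 mJ/cm2 by the protocol, on a shaved area of the flank. The labels do not state whether the untreated site was shaved, how long after the last dose the skin was taken, or the strain, age and sex of the mice. Nor do they name an animal, so libraries of a genotype may share mice, and p-values measure the spread between libraries.

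Library totals ran from 2809142 to 4741726 counts. Foxp3 itself had 8 counts in DE2 UVB (1, 7 and 0 in replicates 1 to 3) and 0 in each other library, too few to check the genotype, and counts per gene cannot show which form was expressed. Levels are in CPM, the count relative to the scaled library size. The summed level of 12 genes that identify skin was 7592 to 10300 CPM in WT untreated, 7073 to 10160 in WT UVB, 10180 to 19140 in DE2 untreated and 22370 to 29140 in DE2 UVB. The 3 DE2 UVB libraries also stood apart in keratinocyte stress genes, at 19030 to 23970 CPM. These genes summed to 2772 to 4444 CPM in WT UVB, 1209 to 1931 in WT untreated and 629 to 1011 in DE2 untreated. The 3 DE2 untreated libraries stood apart in other marker genes. Skeletal muscle genes took 7.45% to 13.6% of their counts, against 3.82% to 4.79% in WT untreated, 1.78% to 7.24% in WT UVB and 3.11% to 3.79% in DE2 UVB, and no gene of that list was at 0 in any library. Hair follicle genes summed to 433 to 1280 CPM in DE2 untreated and to 11100 to 19550 CPM in DE2 UVB. In WT they summed to 15100 to 28030 CPM untreated and to 29860 to 35920 CPM with UVB. Cell division genes summed to 266 to 367 CPM in DE2 untreated and to 970 to 1974 CPM elsewhere. Melanocyte genes summed to 21.5 to 51.9 CPM in DE2 untreated and to 627 to 1902 CPM elsewhere. Genes of the mitochondrial genome took 2.8% to 3.3% of counts in DE2 untreated and at most 2.62% elsewhere. Every comparison with the DE2 untreated group is therefore also a comparison of libraries that differ in these lists. In bulk RNA, fewer cells of a type cannot be told apart from less RNA per cell.

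In WT skin, irradiation went with no called change in any of the 39 genes. In DE2 skin, 11 of 39 differed between the irradiated and the untreated site, 8 higher with UVB (Cdkn1a, Plk2, Plk3, Pmaip1, Perp, Ercc6, Xpa and Lig1) and 3 lower (Ccng1, Eda2r and Phlda3). Between the genotypes, 8 differed at the untreated site and 1, Pmaip1, at the irradiated site. A gene is called where its adjusted p (quasi-likelihood test of edgeR, adjusted by Benjamini-Hochberg over all 15126 genes) was under 0.05.

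These counts sit close to those of all genes. UVB in WT called 0 of 39 members and 0.0198% of all genes (3 genes). At an unadjusted p under 0.05 it held 0 members and 4.56% of all genes. Of the 7 keratinocyte stress genes, 0 were called for UVB in WT, but 6 had an unadjusted p under 0.05. Their median log2 fold change was 2.18. DESeq2, limma voom and the other settings tried also called 0 members for UVB in WT. UVB in DE2 called 28.2% of members and 27.8% of all genes (14.4% higher and 13.4% lower). Genotype at the untreated site called 20.5% of members and 23.0% of all genes (11.8% higher and 11.2% lower in DE2). Genotype at the irradiated site called 2.56% of members and 2.96% of all genes (2.35% higher and 0.608% lower). The interaction, which asks whether the UVB effect differed between the genotypes, called 2 members, 5.13%, and 10.5% of all genes (5.64% positive and 4.84% negative). The median log2 fold change of the 39 was 0.09 for UVB in WT, 0.07 for UVB in DE2, -0.04 for DE2 against WT at the untreated site and -0.11 at the irradiated site, beside 0.03, 0.02, 0.03 and -0.03 over all genes tested. In each of the 5 comparisons the share of the 39 genes that was called lay near or below that of all genes.

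**Figure D1:**
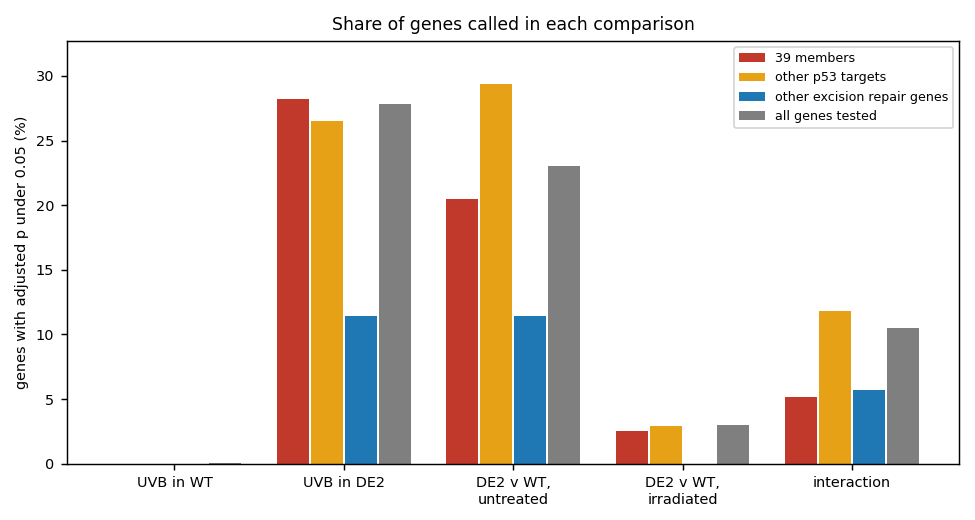
Share of genes called in each of the 5 comparisons (adjusted p under 0.05, in %), for the 39 members, for other p53 targets, for other excision repair genes and for all genes tested. The bars of the members reach 28.2% for UVB in DE2 and 20.5% for genotype at the untreated site, beside 27.8% and 23.0% for all genes.

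Among the members, levels can be compared only per length. Perp was highest, at a mean of 1295 CPM per kilobase of exon over the 12 libraries, followed by Cdkn1a at 148, Phlda3 at 124 and Ccng1 at 120. The place of Ccng1 comes from the DE2 untreated group, at 282 CPM per kilobase against 49.0 to 77.8 in the other groups. Trp53 was at 25.3 CPM per kilobase. The lowest were the death receptor gene Tnfrsf10b at 0.653, the helicase gene Ercc2 at 0.721, Rrm2b at 1.24, Polh at 1.27 and Ddb2 at 1.40.

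Trp53, which encodes p53 (ENSMUSG00000059552, chromosome 11, 69580359 to 69591873, plus strand, GRCm38), was at 128, 121 and 113 CPM in WT untreated and 131, 95.2 and 143 CPM in WT UVB. It was at 88.7, 70.5 and 69.7 CPM in DE2 untreated and 72.1, 111 and 82.4 CPM in DE2 UVB. The 3 DE2 untreated libraries lay below the 3 WT untreated ones, while both pairs of untreated and irradiated groups overlapped. At the untreated site Trp53 was lower in DE2 by a log2 fold change of -0.66 ± 0.21 (SE; adjusted p = 0.0342), a call that was lost in 4 of the 6 fits that left out 1 compared library, with an adjusted p of up to 0.129, all but those without WT untreated replicate 3 and DE2 untreated replicate 1. At the irradiated site the value was -0.48 ± 0.21 (adjusted p = 0.297). For UVB it was 0.03 ± 0.21 in WT and 0.21 ± 0.21 in DE2 (adjusted p = 0.492), with 95% intervals of -0.42 to 0.47 and -0.24 to 0.66.

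Mdm2 (ENSMUSG00000020184, chromosome 10, 117688875 to 117710758, minus strand) encodes the ubiquitin ligase that restrains p53 and is itself a p53 target. Its level was 50.9, 69.9 and 37.7 CPM in WT untreated, 49.6, 63.7 and 36.8 in WT UVB, 61.4, 84.9 and 75.3 in DE2 untreated and 50.1, 53.5 and 36.5 in DE2 UVB. In DE2 the 3 irradiated libraries lay below the 3 untreated ones, and in WT they overlapped. No comparison called it. The UVB value was -0.08 ± 0.27 in WT and -0.66 ± 0.27 in DE2 (adjusted p = 0.0861), and the genotype value was 0.48 ± 0.27 at the untreated site (adjusted p = 0.219) and -0.10 ± 0.27 at the irradiated site.

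The p53 protein binds DNA through the p53 response element, a pair of 10-base repeats separated by 0 to 13 bases. Promoter windows of 300 bases, from 250 before to 50 after each annotated start (RefSeq, GRCm38.p6), were found for 30 of the 39 genes, 38 windows in all. No window was found for Tnfrsf10b, Rrm2b, Ercc3, Zmat3, Pmaip1, Xpc, Perp, Ddb2 and Trp53inp1, so these were not scanned. A full element, allowing 1 mismatch in each repeat, lay in 2 of the 38 windows, 5.26%, and in 2.71% of all 32851 promoter windows. A single repeat without mismatch lay in 28.9% of the members' windows and in 8.36% of all windows, where windows of a gene with several starts can share bases. The members were named partly because they are p53 targets, so these shares describe the choice of genes. The windows of Cdkn1a and Ccng1, the only scanned members with a full match, are shown with that of Mdm2, 5′ to 3′ on the strand of the gene. Capitals mark the full element in the first pair and a single repeat in Mdm2. The Cdkn1a window (chr17:29090729-29091028, plus strand) holds its element 51 bases before the start, with a second, overlapping match. That of Ccng1 (chr11:40755237-40755536, minus strand) lies 195 bases before the start. The repeat of Mdm2 (chr10:117710709-117711008, minus strand) lies 186 bases before the start. A match is a description of letters, not of binding.
Cdkn1a: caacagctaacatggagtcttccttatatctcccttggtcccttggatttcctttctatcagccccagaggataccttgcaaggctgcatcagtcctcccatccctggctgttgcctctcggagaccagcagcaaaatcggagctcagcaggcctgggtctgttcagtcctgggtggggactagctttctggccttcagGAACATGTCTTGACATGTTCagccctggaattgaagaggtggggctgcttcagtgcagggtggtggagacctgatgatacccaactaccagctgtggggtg
Ccng1: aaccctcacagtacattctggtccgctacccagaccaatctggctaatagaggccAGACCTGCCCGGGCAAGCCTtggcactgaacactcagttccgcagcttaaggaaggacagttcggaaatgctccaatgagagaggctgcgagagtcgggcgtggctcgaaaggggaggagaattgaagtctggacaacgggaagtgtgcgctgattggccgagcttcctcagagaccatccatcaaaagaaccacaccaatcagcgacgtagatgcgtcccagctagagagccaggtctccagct
Mdm2: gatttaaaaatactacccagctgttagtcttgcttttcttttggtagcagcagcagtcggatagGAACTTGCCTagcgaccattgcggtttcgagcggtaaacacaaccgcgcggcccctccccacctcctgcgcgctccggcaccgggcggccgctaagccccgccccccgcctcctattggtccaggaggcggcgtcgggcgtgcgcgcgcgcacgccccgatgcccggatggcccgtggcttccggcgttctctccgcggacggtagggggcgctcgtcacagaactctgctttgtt

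Of 7 members for cell cycle arrest and checkpoints, 3 rose and 1 fell with UVB in DE2, while 1 was higher and 2 were lower in DE2 at the untreated site, beside 27.8% and 23.0% of all genes called in these comparisons. None was called for UVB in WT or for genotype at the irradiated site. The 2 members with a full p53 element in the window went opposite ways in DE2, Cdkn1a higher and Ccng1 lower with UVB.

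Cdkn1a (ENSMUSG00000023067, chromosome 17, 29090976 to 29100727, plus strand) encodes p21, the inhibitor of cyclin-dependent kinases through which p53 arrests the cell cycle. It was at 455, 653 and 522 CPM in WT untreated and 545, 607 and 648 in WT UVB, and at 408, 391 and 338 in DE2 untreated and 613, 523 and 612 in DE2 UVB. DE2 UVB libraries lay above DE2 untreated ones and overlapped both WT groups, and the DE2 untreated libraries were the lowest of the 12. The log2 fold change with UVB was 0.62 ± 0.19 in DE2 (adjusted p = 0.0250) and 0.14 ± 0.19 in WT, with a 95% interval of -0.26 to 0.55 in WT. The DE2 call was lost in 4 of 6 fits without 1 compared library, at an adjusted p of up to 0.101 (all but those without DE2 untreated replicate 1 and DE2 UVB replicate 2), and the interaction was 0.48 ± 0.27 (adjusted p = 0.284). At the irradiated site DE2 and WT differed by -0.04 ± 0.19, with a 95% interval of -0.45 to 0.36.

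Ccng1 (ENSMUSG00000020326, chromosome 11, 40748552 to 40755311, minus strand) encodes cyclin G1, a p53 target that acts with a phosphatase on Mdm2. It was at 231, 214 and 287 CPM in WT untreated, 215, 504 and 101 in WT UVB, 568, 1112 and 1294 in DE2 untreated and 201, 172 and 143 in DE2 UVB. All 3 DE2 untreated libraries were above all 9 others, and WT UVB had the widest spread of the remaining groups. Ccng1 fell by 2.53 on the log2 scale with UVB in DE2 (SE 0.46; adjusted p = 0.00148), and was higher by 2.02 ± 0.45 in DE2 at the untreated site (adjusted p = 0.00631). The change with UVB in WT was 0.16 ± 0.44, and the interaction was -2.69 ± 0.63 (adjusted p = 0.0175), which 2 of the 12 fits without 1 library did not call. These were the fits without WT untreated replicate 2 and without DE2 untreated replicate 3, with an adjusted p of up to 0.0527.

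Within 3 of the 4 groups the libraries had the same order by Ccng1 and by the muscle genes. In WT UVB the muscle list took 3.57%, 7.24% and 1.78% of counts in the libraries with 215, 504 and 101 CPM of Ccng1. In DE2 untreated it took 7.45%, 12.2% and 13.6% in the libraries with 568, 1112 and 1294 CPM, and in WT untreated 4.40%, 3.82% and 4.79% in those with 231, 214 and 287 CPM. In DE2 UVB the order differed, with 3.27%, 3.11% and 3.79% at 201, 172 and 143 CPM. The part of muscle in the Ccng1 difference was not tested, since the muscle share and the DE2 untreated group cannot be told apart. With the mean log2 level of the muscle genes as a covariate, no comparison with that group called Ccng1 or any other member.

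Plk2 and Plk3 encode stress-responsive polo-like kinases. Plk2 (ENSMUSG00000021701, chromosome 13, 110395046 to 110400844, plus strand) was at 66.0, 64.8 and 54.4 CPM in WT untreated and 91.0, 83.9 and 84.8 in WT UVB, and at 21.7, 35.1 and 21.9 in DE2 untreated and 47.9, 82.5 and 68.5 in DE2 UVB. Irradiated libraries lay above untreated ones in both genotypes, and DE2 lay below WT at both sites. It rose by 1.34 ± 0.25 with UVB in DE2 (adjusted p = 0.00132), was lower by a log2 fold change of -1.23 ± 0.25 in DE2 at the untreated site (adjusted p = 0.00290), and both calls held in all 6 fits without 1 library. In WT its UVB value of 0.49 ± 0.24 had an unadjusted p of 0.0601 and an adjusted p of 1.0. The interaction was 0.85 ± 0.34 (adjusted p = 0.126), so the UVB effects in the genotypes were not shown to differ.

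Plk3 (ENSMUSG00000028680, chromosome 4, 117128655 to 117133963, minus strand) was at 62.3, 134 and 109 CPM in WT untreated, 131, 163 and 116 in WT UVB, 67.5, 49.2 and 45.6 in DE2 untreated and 119, 131 and 114 in DE2 UVB. The DE2 groups were separate, and 1 WT untreated library lay among the DE2 untreated ones. It rose by 1.17 ± 0.26 with UVB in DE2 (adjusted p = 0.00414) and was lower by a log2 fold change of -0.91 ± 0.26 in DE2 at the untreated site (adjusted p = 0.0196; up to 0.0896 and lost without WT untreated replicate 2, DE2 untreated replicate 2 or DE2 untreated replicate 3). UVB in WT gave 0.42 ± 0.25. Gadd45a (growth arrest and repair), Btg2 (an antiproliferative factor) and Zmat3 (an RNA-binding protein) were called nowhere. Their UVB values were -0.14, 0.09 and -0.40 in WT and 0.07, 0.33 and -0.34 in DE2. Zmat3 had WT UVB libraries all below WT untreated ones, at a mean of 16.8 ± 2.44 against 22.3 ± 1.82 CPM (SD, n = 3; adjusted p = 1.0).

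**Figure D2:**
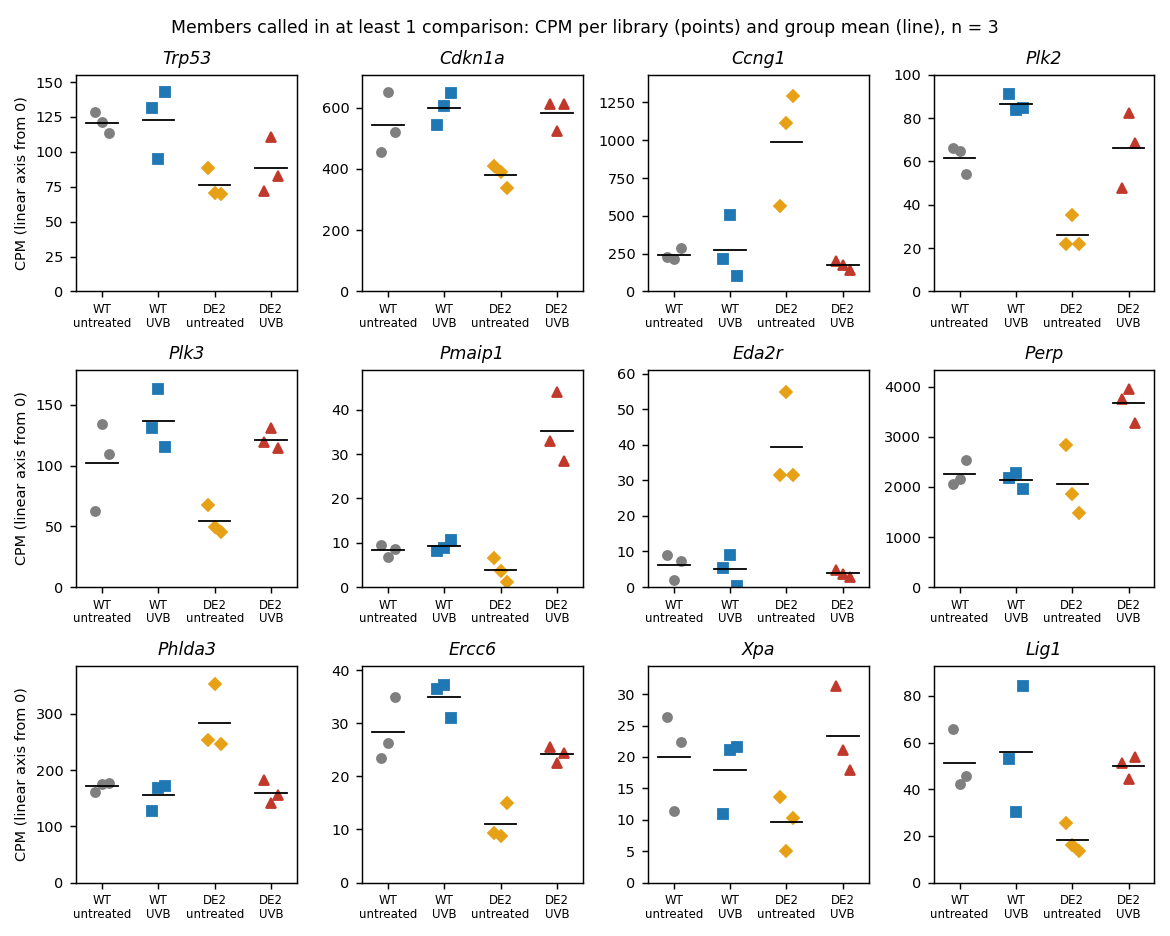
Level in CPM (linear axis from 0) of the 12 members called in at least 1 comparison, with 1 point per library and a line at the mean of each group of 3. In most panels the DE2 untreated group stands apart, as in Ccng1 at 568 to 1294 CPM, while in Pmaip1 the DE2 UVB group does, at 28.4 to 44.0 CPM.

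Of 10 members that act in cell death or carry death signals, 2 rose (Pmaip1 and Perp) and 2 fell (Eda2r and Phlda3) with UVB in DE2, where 14.4% of all genes were called higher and 13.4% lower. Eda2r and Phlda3 were also higher in DE2 at the untreated site, and Pmaip1 was higher in DE2 at the irradiated site. None of the 10 was called for UVB in WT.

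Pmaip1 (ENSMUSG00000024521) encodes Noxa, a BH3-only protein that promotes apoptosis by binding prosurvival proteins of the Bcl-2 family. It was at 9.58, 6.76 and 8.55 CPM in WT untreated and 8.22, 8.86 and 10.6 in WT UVB, and at 6.58, 3.68 and 1.11 in DE2 untreated and 32.9, 44.0 and 28.4 in DE2 UVB. The DE2 UVB libraries lay above all 9 others, of which none passed 10.6 CPM. The counts behind these levels were 78 to 182 in DE2 UVB and 4 to 44 in the other libraries. Pmaip1 was 9.12-fold higher with UVB in DE2, a log2 fold change of 3.19 ± 0.49 (adjusted p = 0.000324), against 0.15 ± 0.46 in WT. The difference between these effects was 3.04 ± 0.66 (interaction, adjusted p = 0.0106), and it was called in all 12 fits that left out 1 library.

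At the irradiated site Pmaip1 was 3.80-fold higher in DE2 than in WT, a log2 fold change of 1.93 ± 0.46 (adjusted p = 0.0342), and it was the 1 member called there. That call did not hold in any of the 6 fits without 1 of the compared libraries, with log2 fold changes of 1.73 to 2.06 and adjusted p-values of 0.0638 to 0.164. Without the DE2 untreated group, an alternative added after seeing the data, the value was 1.92 with an adjusted p of 0.00568. At the untreated site the direction was the opposite, at -1.11 ± 0.48 (adjusted p = 0.112).

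DE2 UVB skin also held the most neutrophil transcripts. The 10 neutrophil genes summed to 4827 to 5516 CPM there, against 197 to 416 in WT UVB, 51.4 to 64.6 in WT untreated and 14.7 to 196 in DE2 untreated. Of the 10 genes, 7 were higher in DE2 at the irradiated site, as were 5 of 7 keratinocyte stress genes. Their part in the Pmaip1 difference was not tested.

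Perp (ENSMUSG00000019851, chromosome 10, 18845020 to 18857073, plus strand) encodes a membrane protein of desmosomes that p53 uses in apoptosis. It was at 2051, 2158 and 2543 CPM in WT untreated, 2178, 2273 and 1952 in WT UVB, 2844, 1852 and 1476 in DE2 untreated and 3766, 3968 and 3278 in DE2 UVB. All 3 DE2 UVB libraries lay above the 9 others. The skin identity and keratinocyte stress lists also had their highest sums there, and their part in the Perp difference was not tested. The 12 skin identity genes went both ways, with 4 called higher and 3 lower with UVB in DE2 (58.3%, beside 27.8% of all genes). At the irradiated site 3 of them were higher and 2 lower in DE2 (41.7%, beside 2.96% of all genes). The rise of Perp with UVB in DE2 was 0.84 ± 0.26 (adjusted p = 0.0251), lost at up to 0.106 in 4 of 6 fits without 1 library (all but those without DE2 untreated replicate 1 and DE2 UVB replicate 3), while the UVB value in WT was -0.08 ± 0.26. DE2 against WT at the irradiated site gave 0.78 ± 0.26 with an adjusted p of 0.130, which did not pass here but passed in 4 other settings, DESeq2 among them.

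Eda2r (ENSMUSG00000034457, chromosome X, 97333840 to 97377216, minus strand) encodes a receptor of the tumour necrosis factor receptor family for ectodysplasin A2. It was at 9.14, 1.86 and 7.30 CPM in WT untreated, 5.48, 9.10 and 0.304 in WT UVB, 31.4, 54.9 and 31.7 in DE2 untreated and 4.90, 3.63 and 2.92 in DE2 UVB. DE2 untreated libraries were at 31.4 CPM or more, and no other library passed 9.14 CPM. It fell by 3.35 on the log2 scale with UVB in DE2 (SE 0.73; adjusted p = 0.00378) and was higher by 2.68 ± 0.69 in DE2 at the untreated site (adjusted p = 0.0125; up to 0.0616 and lost without WT untreated replicate 2 or DE2 untreated replicate 2). The UVB value in WT was -0.28 ± 0.70, and the interaction of -3.07 ± 1.002 missed the threshold (adjusted p = 0.0634). Its order by library was that of the muscle list in WT UVB, with 9.10 CPM at a muscle share of 7.24% and 0.304 CPM, 1 count, at 1.78%, and not in the other 3 groups.

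Phlda3 (ENSMUSG00000041801, chromosome 1, 135766119 to 135769136, plus strand) encodes an inhibitor of the survival kinase Akt. Its level was 161, 175 and 177 CPM in WT untreated, 128, 169 and 171 in WT UVB, 254, 353 and 246 in DE2 untreated and 183, 142 and 155 in DE2 UVB. The DE2 untreated libraries were again the highest, and the other 3 groups overlapped. Phlda3 fell by 0.83 on the log2 scale with UVB in DE2 (SE 0.19; adjusted p = 0.00527) and was higher by 0.74 ± 0.19 in DE2 at the untreated site (adjusted p = 0.0129; up to 0.0824 and lost without any 1 WT untreated library or DE2 untreated replicate 2). In WT the UVB value was -0.13 ± 0.19, and at the irradiated site the genotypes differed by 0.04 ± 0.19, with a 95% interval of -0.37 to 0.45.

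**Figure D3:**
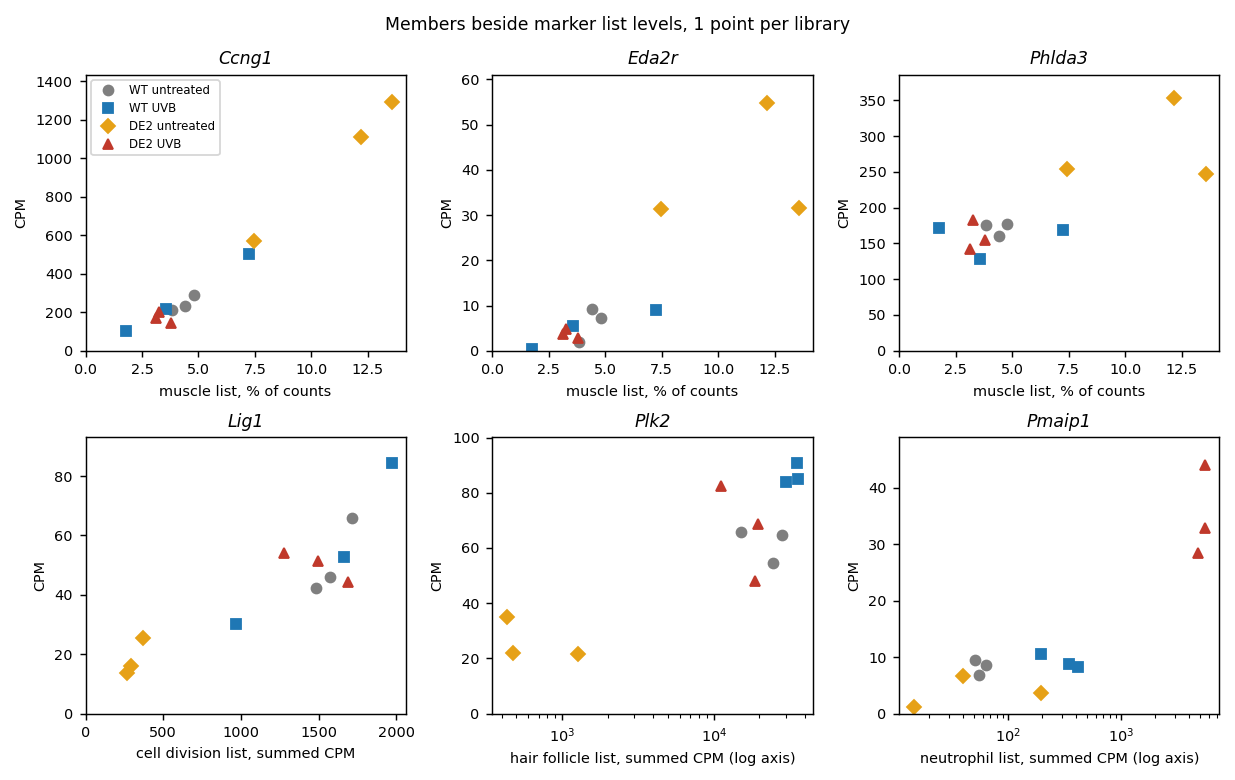
Level in CPM of 6 members against the level of a marker list in the same library, 1 point per library and 1 colour and shape per group; the hair follicle and neutrophil axes are logarithmic. Ccng1 is highest in the libraries with the largest muscle share, and in WT UVB its highest library, at 504 CPM, has the highest muscle share of its group, 7.24%.

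The other 6 of these 10 genes were called in no comparison. They were Bbc3 (Puma, a BH3-only protein), Bax (which permeabilises mitochondria), the death receptor genes Fas and Tnfrsf10b, Aen (an apoptosis-enhancing nuclease) and Trp53inp1 (a p53 cofactor). Bax was at 35.4 ± 3.18 CPM in DE2 UVB and 25.5 ± 4.33 in DE2 untreated, with an adjusted p of 0.164. In WT, Bax was at 35.7 ± 4.87 CPM with UVB and 36.6 ± 5.21 without (SD, n = 3). Aen was at 38.1, 33.2 and 25.9 CPM in DE2 UVB, all below the 44.9, 57.3 and 60.8 of WT UVB, at a log2 fold change of -0.74 ± 0.28 (adjusted p = 0.202). Trp53inp1 was likewise below WT in all 3 DE2 UVB libraries, at -0.62 ± 0.24 (adjusted p = 0.226). For Fas and Tnfrsf10b the UVB values were -0.58 and -0.22 in WT and -0.33 and 1.60 in DE2, with standard errors of 0.68 to 0.83. Bbc3, at 1.22 to 6.85 CPM over the 12 libraries, was too low for a narrow estimate, with standard errors of 0.81 to 0.83.

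Of the stress metabolism genes, Sesn1 and Sesn2 encode sestrins, which restrain growth signalling, and Rrm2b encodes a ribonucleotide reductase subunit that supplies nucleotides for repair. None was called in any comparison. UVB gave 0.06, 0.09 and -0.62 in WT and -0.66, 0.54 and -0.90 in DE2. Sesn1 was higher in all 3 DE2 untreated libraries, at 58.0, 69.6 and 83.9 CPM, than in WT untreated, at 57.3, 43.1 and 46.5 CPM, with an adjusted p of 0.251.

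**Figure D4:**
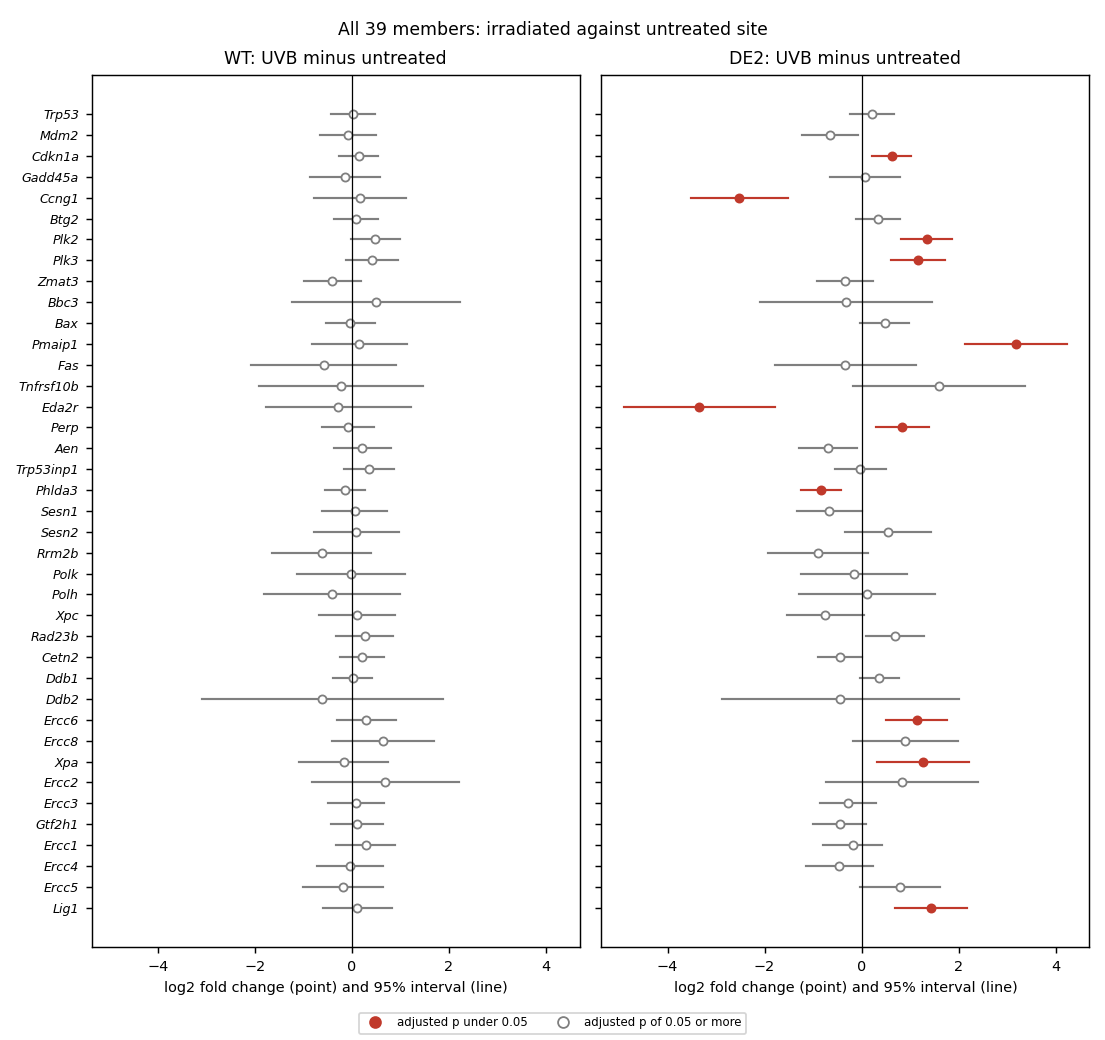
Log2 fold change of each of the 39 members, irradiated against untreated skin, in WT (left) and DE2 (right), with 95% intervals as lines; filled red points have an adjusted p under 0.05. No point is filled in WT, and 11 are filled in DE2, from Eda2r at -3.35 to Pmaip1 at 3.19.

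The translesion polymerase genes were called nowhere. Polh, whose product copies accurately past UV-induced pyrimidine dimers, was at 3.27, 11.0 and 10.4 CPM in WT untreated, 6.03, 6.40 and 6.08 in WT UVB, 1.46, 13.02 and 8.34 in DE2 untreated and 5.99, 7.99 and 10.6 in DE2 UVB. All groups overlapped, and the UVB values of -0.41 ± 0.66 in WT and 0.11 ± 0.66 in DE2 had 95% intervals of -1.81 to 0.99 and -1.29 to 1.51. Polk, which copies past bulky lesions, gave -0.01 ± 0.52 in WT and -0.16 ± 0.51 in DE2.

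Damage recognition begins with Xpc, Rad23b and Cetn2 across the genome, with the UV-damaged DNA-binding complex of Ddb1 and Ddb2 at pyrimidine dimers, and with Ercc6 and Ercc8 (the Cockayne syndrome proteins B and A) at stalled RNA polymerase. Of these 7, 1 was called, Ercc6, in 2 comparisons with the DE2 untreated group. That is 14.3% in each, beside 27.8% of all genes for UVB in DE2 and 23.0% for genotype at the untreated site. Ercc6 (ENSMUSG00000054051, chromosome 14, 32513521 to 32580990, plus strand) was at 23.5, 26.3 and 35.0 CPM in WT untreated, 36.4, 37.1 and 31.0 in WT UVB, 9.26, 8.77 and 15.0 in DE2 untreated and 25.6, 22.5 and 24.4 in DE2 UVB. DE2 untreated libraries were the lowest, and at the irradiated site DE2 libraries also lay below WT ones. It rose by 1.13 ± 0.30 with UVB in DE2 (adjusted p = 0.0106; 0.0537 without DE2 untreated replicate 2) and was lower by a log2 fold change of -1.36 ± 0.30 in DE2 at the untreated site (adjusted p = 0.00446; called in all 6 fits without 1 library). The genotype value at the irradiated site was -0.53 ± 0.28 (adjusted p = 0.425). For Rad23b, Cetn2 and Ercc8 the UVB values were 0.26, 0.22 and 0.65 in WT and 0.70, -0.44 and 0.90 in DE2, where the smallest adjusted p was that of Rad23b, 0.0782.

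Xpc (ENSMUSG00000030094, chromosome 6, 91489305 to 91515888, minus strand) was at 27.9, 28.4 and 22.5 CPM in WT untreated, 40.3, 15.3 and 29.5 in WT UVB, 39.5, 20.4 and 26.4 in DE2 untreated and 16.9, 12.6 and 22.2 in DE2 UVB. All groups overlapped. The log2 values were 0.11 ± 0.37 for UVB in WT, -0.75 ± 0.37 for UVB in DE2 (adjusted p = 0.156) and -0.72 ± 0.37 for DE2 against WT at the irradiated site (adjusted p = 0.403).

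Ddb1 (ENSMUSG00000024740, chromosome 19, 10605327 to 10629819, plus strand) was at 145, 135 and 133 CPM in WT untreated, 151, 106 and 164 in WT UVB, 114, 142 and 108 in DE2 untreated and 155, 153 and 160 in DE2 UVB. The DE2 groups did not overlap, yet the value of 0.37 ± 0.19 did not pass (adjusted p = 0.165), and UVB in WT gave 0.02 ± 0.19, with a 95% interval of -0.38 to 0.42. Ddb2 (ENSMUSG00000002109, chromosome 2, 91211572 to 91236982, minus strand) was at 1.96, 7.22 and 2.08 CPM in WT untreated, 2.19, 2.71 and 2.43 in WT UVB, 0.244, 4.24 and 11.4 in DE2 untreated and 0.0, 7.26 and 4.37 in DE2 UVB. These levels rest on 0 to 41 counts a library. With 95% intervals of -3.09 to 1.87 in WT and -2.87 to 2.00 in DE2, a several-fold UVB effect on Ddb2 in either direction was not detectable at this depth. Its exons share 652 bases with Acp2 on the opposite strand, which had 1125 counts over the 12 libraries against 176 of Ddb2, and the labels do not state whether counting used strand.

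Of the 4 genes of lesion verification and helix opening, 1 was called, for UVB in DE2 (25.0%, beside 27.8% of all genes). Xpa (ENSMUSG00000028329, chromosome 4, 46155347 to 46196311, minus strand), which verifies the lesion, was at 26.3, 11.4 and 22.3 CPM in WT untreated, 11.0, 21.2 and 21.6 in WT UVB, 13.7, 5.09 and 10.3 in DE2 untreated and 31.3, 21.1 and 17.9 in DE2 UVB. Of the 4 pairs of groups compared, only the DE2 pair did not overlap. The rise of 1.27 ± 0.44 (adjusted p = 0.0452) was lost in 5 of 6 fits without 1 library (all but that without DE2 untreated replicate 1), at up to 0.170, and in limma voom, at 0.0566. Xpa shares 77 exon bases with the opposite-strand gene Ncbp1, which had 3231 counts over the 12 libraries against 836 of Xpa. The TFIIH genes Ercc2 and Ercc3 (helicases) and Gtf2h1 were called nowhere, with UVB values of 0.69, 0.09 and 0.11 in WT and 0.84, -0.28 and -0.45 in DE2. Ercc2 had 137 counts over the 12 libraries and shares 744 exon bases with the opposite-strand gene Klc3, which had 1865.

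Of the 4 genes of incision and ligation, 1 was called, Lig1, for UVB in DE2 and for genotype at the untreated site. That is 25.0% in each, beside 27.8% and 23.0% of all genes. Lig1 (ENSMUSG00000056394, chromosome 7, 13277283 to 13311433, plus strand) encodes a DNA ligase that seals repair patches and also joins Okazaki fragments in replication. It was at 65.7, 42.2 and 45.9 CPM in WT untreated, 52.9, 30.3 and 84.2 in WT UVB, 25.4, 16.1 and 13.6 in DE2 untreated and 51.4, 44.3 and 54.0 in DE2 UVB. DE2 untreated libraries were the lowest of the 12. Lig1 rose by 1.43 ± 0.35 with UVB in DE2 (adjusted p = 0.00709) and was lower by a log2 fold change of -1.48 ± 0.35 in DE2 at the untreated site (adjusted p = 0.00739), and both calls held in all 6 fits without 1 library. The cell division list ran alongside, at 266 to 367 CPM in DE2 untreated and 1279 to 1690 CPM in DE2 UVB, and within WT UVB at 1662, 970 and 1974 CPM in the libraries with 52.9, 30.3 and 84.2 CPM of Lig1. Within DE2 UVB the order was the reverse, with 1494, 1690 and 1279 CPM of the list at 51.4, 44.3 and 54.0 CPM of Lig1. The part of this list in the Lig1 difference was not tested. Lig1 shares 247 exon bases with the opposite-strand gene Zswim9, which had 447 counts over the 12 libraries against 2026 of Lig1. The nuclease genes Ercc1, Ercc4 (partners in 1 nuclease) and Ercc5 gave UVB values of 0.29, -0.04 and -0.18 in WT and -0.19, -0.46 and 0.79 in DE2, none called.

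At the untreated site, 3 of the 8 called members were higher in DE2 (Ccng1, Eda2r and Phlda3) and 5 were lower (Trp53, Plk2, Plk3, Ercc6 and Lig1). With libraries scaled to their totals alone, 11 were called, 2 higher and 9 lower, a scaling under which all genes also shifted, with 788 called higher and 3011 lower (25.1%). The comparisons of UVB in DE2 and of genotype at the untreated site share the 3 DE2 untreated libraries, so a level that stands apart there enters both. In that group 15 of 18 muscle genes were higher than in WT untreated. Lower there were 20 of 21 hair follicle genes, 20 of 20 cell division genes and 7 of 8 melanocyte genes. With the hair follicle level added as a covariate, 0 members were called in either comparison, and 1 and 0 of all 15126 genes. With the muscle level as the covariate 0 members were called as well, and 5.13% and 2.82% of all genes. Under the muscle covariate the log2 fold changes for UVB in DE2 were 1.42 for Plk2, 1.18 for Plk3 and -0.57 for Ccng1. Those for genotype at the untreated site were -1.31, -0.92 and 0.16. Under the hair follicle covariate the same 3 genes had 2.97, -0.18 and 0.65 for UVB in DE2. For genotype at the untreated site they had -3.10, 0.65 and -1.58. Neither level can be told apart from the group.

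**Figure D5:**
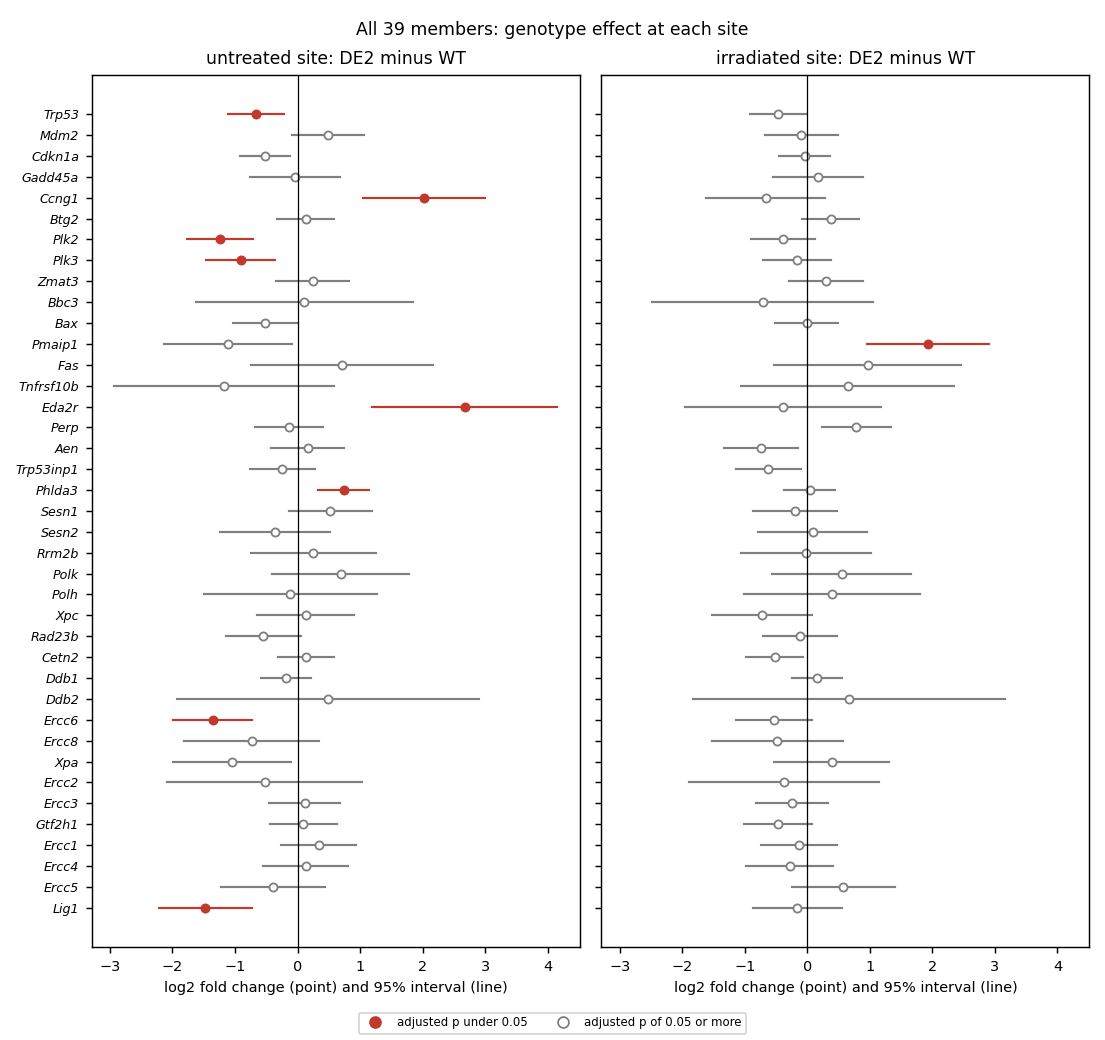
Log2 fold change of each of the 39 members, DE2 against WT, at the untreated site (left) and the irradiated site (right), with 95% intervals as lines; filled red points have an adjusted p under 0.05. At the untreated site 8 points are filled, from Lig1 at -1.48 to Eda2r at 2.68, and at the irradiated site only Pmaip1 at 1.93.

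At the irradiated site the muscle shares of the genotypes overlapped, but the sums of other lists did not. Hair follicle genes summed to 11100 to 19550 CPM in DE2 UVB and to 29860 to 35920 CPM in WT UVB. Melanocyte genes summed to 627 to 732 CPM in DE2 UVB and to 828 to 1902 CPM in WT UVB. The part of these lists in the genotype values was not tested. The 95% interval of the DE2 minus WT value lay within a 2-fold change either way for 19 of 39 members, and that of the UVB effect in WT for 25 of 39. The median width of these intervals was 1.35 and 1.34 on the log2 scale, and for the other members a 2-fold difference was not outside the interval. The DE2 and WT libraries did not overlap in 8 of 39 members, 20.5%, beside 21.3% of all genes. Pmaip1 and Perp were the 2 higher ones (11.9% of all genes), and Plk2, Aen, Trp53inp1, Cetn2, Ercc6 and Ercc3 the 6 lower ones (9.35% of all genes). For UVB in WT, groups did not overlap in 3 members (Plk2 and Ercc2 higher, Zmat3 lower), 7.69%, beside 10.1% of all genes (4.85% higher and 5.25% lower). The groups did not overlap in 16 members for UVB in DE2, 41.0% beside 41.5% of all genes, and in 11 for genotype at the untreated site, 28.2% beside 39.8%.

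Lists of further pathway genes gave the same kind of count. Of 34 tested further p53 targets, UVB in WT called 0, and 2 had an unadjusted p under 0.05, beside 4.56% of all genes. UVB in DE2 called 3 higher and 6 lower, genotype at the untreated site 6 higher and 4 lower, and genotype at the irradiated site 0 higher and 1 lower. The shares of 26.5%, 29.4% and 2.94% in the last 3 comparisons stand beside 27.8%, 23.0% and 2.96% of all genes. The 1 at the irradiated site was Cd82, a tetraspanin gene, with a log2 fold change of -1.18 (adjusted p = 0.0192). Psrc1, which encodes a microtubule-binding protein of mitosis, rose by 3.56 with UVB in DE2 and was lower at -3.60 in DE2 at the untreated site, while Ptp4a3, a phosphatase gene, fell by 1.78 and was higher by 2.26. Sulf2, a sulfatase gene, rose by 1.42 and was lower at -1.96 in the same comparisons. The median log2 fold change of these 34 was -0.11 for UVB in DE2 and 0.04 at the untreated site.

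Among 35 further excision repair genes, 2 rose and 2 fell with UVB in DE2, 11.4%, beside 27.8% of all genes. Pcna, the sliding clamp of replication and repair, rose by 0.60 and Rfc2, a subunit of the clamp loader, by 0.83, while Cul4a, the ubiquitin ligase scaffold that acts with Ddb1, fell by 1.26. At the untreated site these 3 were called in the opposite direction, with Pcna at -0.85, Rfc2 at -0.65 and Cul4a at 1.07 in DE2 against WT. UVB in WT and genotype at the irradiated site called 0 of the 35. At an unadjusted p under 0.05 they held 0 and 1, beside 689 and 2262 of all 15126 genes. Their median was 0.10 for UVB in DE2 and -0.29 at the untreated site.

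Of 30 genes for damage signalling, checkpoints and other repair, 6 rose and 2 fell with UVB in DE2, and 1 was higher and 6 were lower in DE2 at the untreated site. These are 26.7% and 23.3% of the list, near the 27.8% and 23.0% of all genes. H2afx, the histone marked at DNA breaks, rose by 2.40 and was lower at -2.68, and Rad18, the ligase that recruits translesion polymerases, rose by 1.85 and was lower at -2.06. Fancd2, of crosslink repair, had 1 count in the 3 DE2 untreated libraries together, against 142 in WT untreated, 45 in WT UVB and 66 in DE2 UVB. UVB in WT and genotype at the irradiated site called 0 of the 30. At an unadjusted p under 0.05 they held 2 and 3, beside 689 and 2262 of all 15126 genes. The cell division list changed in the same comparisons, with 18 of 20 genes higher with UVB in DE2, and its part was not tested.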

How the data were processed

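The authors deposited 1 table of raw read counts per gene for each library. The submitters' processing notes name HTSeq 2.0.2, SAMtools 1.16, Picard 3.1.0 and Trimmomatic 0.39, on build GRCm38. Not given in the sources used here are aligner, annotation release, strand setting and whether duplicate reads were removed. Symbols, positions and exon lengths came from GENCODE M21 on GRCm38, which named 53360 of 53465 identifiers.

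The deposited counts were fitted with edgeR 4.0.16 in R 4.3.3, using filterByExpr, TMM scaling, 1 mean per group over all 12 libraries and a robust quasi-likelihood test with 8 residual degrees of freedom. The biological coefficient of variation was 35.8%. Each p-value was adjusted by Benjamini-Hochberg over 15126 genes. Standard errors came from the test statistic. Levels (CPM) use TMM-scaled totals. With 3 libraries a group, only large changes of low genes can be called.

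The members, lists and most alternatives were chosen with earlier results of these data known. Library values are given for members called in at least 1 comparison and for Mdm2, Ddb1, Ddb2, Xpc and Polh, other members by ranges and counts, and, of other pathway lists, up to 4 genes with the smallest p per comparison, of which some are not reported here. Alternatives were RLE scaling, total counts, no filter, DESeq2 1.42.0, limma voom 3.58.1, only the libraries compared, hair follicle or muscle level as a covariate, and libraries left out. The numbers of replicates are in order of deposit and pair nothing.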

Additional observations from a re-analysis of the deposited data

Results flagged for a closer look

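For 2 members the UVB effect differed between the genotypes by a test of the difference itself (edgeR, adjusted by Benjamini-Hochberg). Pmaip1, the Noxa gene, had an interaction of 3.04 on the log2 scale, from a UVB effect of 3.19 in DE2 and 0.15 in WT, and Ccng1, the cyclin G1 gene, had an interaction of -2.69, from -2.53 in DE2 and 0.16 in WT. Both effects in DE2 rest on the DE2 untreated libraries, in which the muscle, hair follicle, cell division and melanocyte lists and the mitochondrial share stand apart. For Pmaip1 the DE2 UVB libraries, at 28.4 to 44.0 CPM, were also above both WT groups, and for Ccng1, at 143 to 201 CPM, they overlapped WT UVB, at 101 to 504 CPM.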

How the results depend on the processing

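Among the settings tried, RLE scaling and the fit without both WT UVB replicate 2 and DE2 untreated replicate 1 kept the direction and call of all 22 called gene results, as did DESeq2. UVB in WT called 0 members in each setting, beside at most 0.926% of all genes (no filter). With the hair follicle covariate, and likewise with the muscle covariate, 0 members were called for UVB in DE2, 0 for genotype at the untreated site and 0 for the interaction. Over all genes the hair follicle covariate called 1, 0 and 1, and the muscle covariate 776, 426 and 302. Under the muscle covariate UVB in DE2 gave log2 values of 1.42 for Plk2, 1.18 for Plk3, 2.50 for Pmaip1 and -0.57 for Ccng1. Genotype at the irradiated site called 0 with the hair follicle covariate and 0 with total counts, beside 0.879% and 2.04% of all genes. It called 2 (Pmaip1 and Perp) with the muscle covariate, with DESeq2, without both libraries named above, and without the DE2 untreated group, which was added after seeing the data. In these settings 4.31%, 5.59%, 5.0% and 4.7% of all genes were called, in that order. The interaction called 4 members with no filter, 4 with DESeq2 and 5 without both libraries, beside 15.5%, 14.7% and 14.2% of all genes. Leaving out 1 library gave 8 to 13 members for UVB in DE2, 4 to 10 for genotype at the untreated site (4 without WT untreated replicate 2 or DE2 untreated replicate 2), 0 to 0 at the irradiated site and 1 to 5 for the interaction (1 without WT untreated replicate 2 or DE2 untreated replicate 3, 4 without WT UVB replicate 3, 5 without DE2 untreated replicate 1). Of all genes these fits called 19.6% to 30.4%, 13.9% to 25.6%, 0.86% to 2.86% and 5.8% to 17.1% in the same comparisons, in that order. The 2 fits with 4 members at the untreated site called 13.9% and 15.7% of all genes.

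With the hair follicle covariate 12 of 22 gene results turned direction and none passed. For UVB in DE2 the log2 values became -0.21 for Cdkn1a, 0.65 for Ccng1, -0.18 for Plk3, 0.0038 for Eda2r, -0.31 for Perp, -0.052 for Xpa and -0.16 for Lig1. For genotype at the untreated site they became -1.58 for Ccng1, 0.65 for Plk3, -1.05 for Eda2r and 0.31 for Lig1, and the Ccng1 interaction became 0.25. The cause was not tested, and this covariate cannot be told apart from the DE2 untreated group. Scaling by total counts moved the median of all genes from 0.03 to -0.37 for genotype at the untreated site, from 0.02 to 0.26 for UVB in DE2 and from 0.04 to 0.38 for the interaction. The 22 called gene results kept their direction, but 2 lost the call, at an adjusted p (edgeR) of up to 0.251. They were Phlda3 at the untreated site and Pmaip1 at the irradiated site. Without the filter, Trp53 at the untreated site (adjusted p = 0.069) and Cdkn1a for UVB in DE2 (adjusted p = 0.089) lost it. With only the libraries compared, Perp and Xpa for UVB in DE2 lost it. No paired analysis was possible because the labels carry no replicate numbers and name no animals. Low counts limit Ddb2, Bbc3, Tnfrsf10b and Ercc2 most.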
